A study of Mus musculus with 9 samples.

Results

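The change that leptin deficiency makes in the mouse brain was measured as 3 arrays of ob/ob mice given vehicle against 3 arrays of wild-type mice given vehicle, which are 6 of the 9 arrays of the study. The arrays were chosen by their titles alone. All mice were males of the C57BL/6JHamSlc strain, either +/+ or ob/ob. They were 6 weeks old when housing began, had 1 week to settle on standard chow, and were then dosed orally with vehicle for 42 days. The other 3 arrays were of ob/ob mice treated with an extract of Vigna umbellata (VE) at 100 mg/kg. They entered the estimate of spread and the quantile and cyclic loess normalizations, except where the 2 groups alone are named. The labels name the tissue as brain without a region, number the replicates 1 to 3 in each group, and do not say more of how the animals relate to each other, so that the p-values measure the spread between these arrays. The study's design text speaks of white adipose tissue where the labels say brain.

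Leptin is a hormone of fat cells that acts on neurons of the hypothalamus, above all those that make AgRP and POMC, to lower food intake and raise energy use. The ob allele is a nonsense mutation in the coding sequence of Lep, and mice with 2 copies of it make no working leptin from birth. Their brains are known to be smaller and to hold less myelin than those of lean littermates. The mutation is present in every cell of the animal and through its whole life, and ob/ob mice are obese, insulin resistant and high in corticosterone, so that loss of leptin and its consequences cannot be told apart in this design.

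Signals were log2 values of 22206 probe sets, of which 19572 carried a gene symbol and covered 19505 genes. Array medians ran from 7.12 to 7.23, and the correlation between any pair of the 6 arrays from 0.979 to 0.993. The SD over probe sets was 2.56 to 2.73 on the ob/ob arrays and 2.78 to 2.84 on the wild-type arrays. Snap25, a synaptic protein of neurons, read 17.24 to 18.78 on the 6 arrays, whereas the adipocyte genes Adipoq and Plin1 read 5.36 to 6.00 and 4.11 to 4.46, below the array medians. By limma with a Benjamini-Hochberg adjusted p under 0.05, 65 genes were higher in ob/ob brain (0.333% of the genes) and 156 were lower (0.8%). In all 221 the 3 ob/ob arrays lay on 1 side of the 3 wild-type arrays, a separation that 14.1% of genes showed upward and 18.5% downward. The smallest called changes were a rise of 0.85 and a fall of 0.86 log2 units. After quantile normalization 184 genes were called higher (0.943%) and 232 lower (1.19%), and these held 62 of the 65 and 113 of the 156. The calls depended on single arrays, those of the VE group included. When array 2 or array 3 of either group was left out, limma called 0 of 22206 probe sets, with 2872 to 3479 at an unadjusted p under 0.05. Over probe sets there were 281 calls (1.27%) with all arrays, 21 without ob/ob array 1, 20 without wild-type array 1, 2975 without VE array 2 and 98 without VE array 3.

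The difference between the groups changed with the level of a probe set. The 22206 probe sets were cut into 20 bins by their mean over the 6 arrays. The median of ob/ob minus wild type was 0.20 in the fifth, sixth and seventh bins, crossed 0 between the eleventh and the twelfth, and was -0.37 in the brightest bin. After quantile normalization no bin was beyond -0.08. Dim probe sets thus leaned upward and bright ones downward in the deposited values. For this reason each list below is given by its median change, by that median after each gene was set against the median of its level bin (the like-level median), and after quantile normalization. Over all 19505 genes these were -0.01, -0.01 and -0.02.

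**Figure D1:**
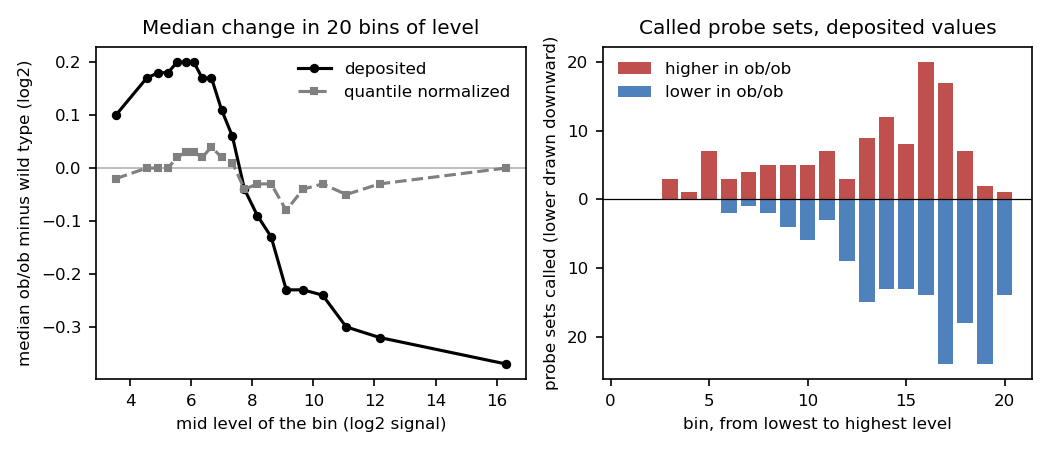
Left, median ob/ob minus wild-type difference (log2) in 20 bins of mean level, for deposited values (circles) and after quantile normalization (squares). Right, probe sets called higher (red, upward) and lower (blue, downward) in each bin from the deposited values. The median falls from 0.20 in dim bins to -0.37 in the brightest, and quantile normalization leaves it near 0.

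Genes of the choroid plexus, the epithelium that makes cerebrospinal fluid, gave some of the largest falls. Of 23 measured markers 6 were called, and all 6 fell, against 0.8% of all genes. All 23 had a lower mean in ob/ob brain, with a median of -0.99 and a like-level median of -0.96. In the order of replicates 1 to 3, Folr1, the folate receptor of this epithelium, read 7.58, 7.04 and 7.28 on the ob/ob arrays and 8.47, 10.03 and 9.57 on the wild-type arrays. Ecrg4, a secreted peptide precursor, read 7.59, 6.51 and 6.44 against 8.21, 9.91 and 9.45. The groups did not overlap for either gene, but wild-type array 1 stood nearest to the ob/ob arrays. Folr1 fell 4.16-fold and Ecrg4 5.07-fold (limma adjusted p 0.0236 and 0.0284). Lbp, which binds bacterial lipopolysaccharide, read 6.20, 5.83 and 6.36 against 7.23, 7.65 and 7.57 with a change of -1.35 (SE 0.263, limma adjusted p 0.0367). Slc13a4, a sulfate transporter, read 6.45, 6.04 and 5.83 against 7.31, 6.95 and 7.23 and fell by 1.06 (SE 0.216, limma adjusted p 0.0413). Its wild-type array 1 was the highest of the 6 arrays, unlike that of the markers above. The angiotensin-converting enzyme gene Ace and the klotho gene Kl completed the called set. Ttr, the carrier of thyroid hormone and the brightest marker, did not pass (limma adjusted p 0.259) and read 15.10 on ob/ob array 2 against 18.24 to 19.87 elsewhere.

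The same arrays ordered the choroid markers as a group. Measured from the wild-type mean of each gene, the list's median was -0.52, -1.60 and -1.20 on the ob/ob arrays and -0.33, 0.26 and 0.14 on the wild-type arrays. Kcnj13, a potassium channel of the epithelium, and Car12, a carbonic anhydrase, showed this most plainly and were picked out after their values were seen. Kcnj13 read 9.27 on wild-type array 1, just above its ob/ob range of 8.55 to 9.25, and 11.45 and 10.51 on the other wild-type arrays. Car12 read 7.74 on wild-type array 1, within the ob/ob range of 7.14 to 7.86. In RNA from bulk tissue, fewer cells of a type and less RNA per cell cannot be told apart, and how much choroid plexus each sample held was not tested. Of 21 markers of ependyma and motile cilia, which line the same ventricles, 1 was called lower, against 0.8% of all genes. Cfap126, a protein of motile cilia, read 6.60, 5.32 and 5.49 against 8.15, 7.34 and 7.64, while the like-level median of the list was -0.15.

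**Figure D2:**
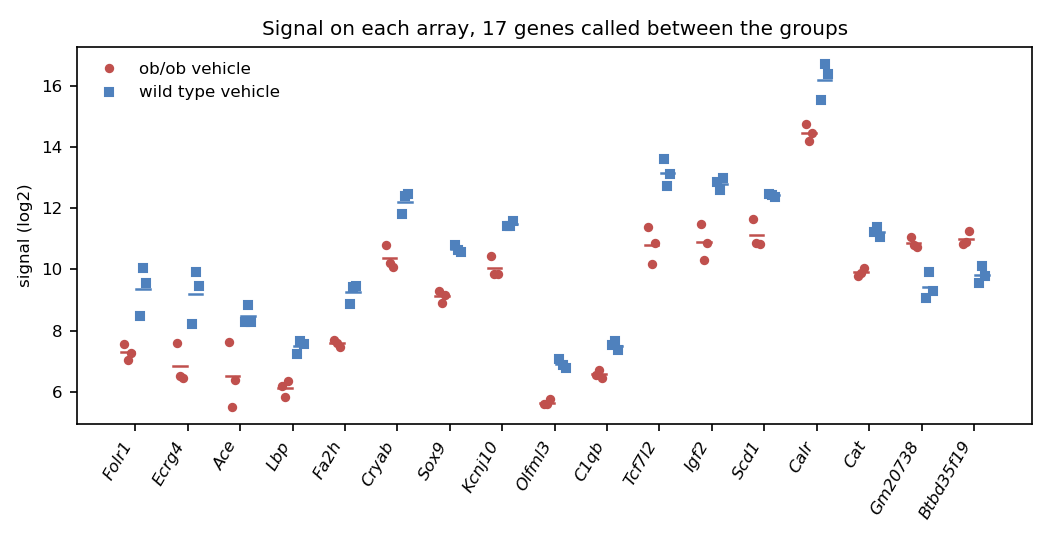
Log2 signal of 17 called genes on each array, ob/ob vehicle as red circles and wild-type vehicle as blue squares, with group means as bars (n = 3 arrays). The groups do not overlap for any of the 17, and the last pair, Gm20738 and Btbd35f19, are higher in ob/ob.

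Several myelin genes fell. Myelin is the lipid-rich sheath that oligodendrocytes wrap around axons. Of 24 measured markers of these cells 4 were called and all 4 fell, against 0.8% of all genes. All 24 lay below the median of their level bin, the median change was -0.98, the like-level median -0.75, and the value after quantile normalization -0.77. For 19 of the 24 all ob/ob arrays lay below all wild-type arrays, as for 18.5% of all genes. Fa2h, which hydroxylates the fatty acids of myelin lipids, read 7.69, 7.61 and 7.47 against 8.87, 9.41 and 9.47. Cryab, the alpha-crystallin chaperone that oligodendrocytes hold, read 10.80, 10.22 and 10.07 against 11.80, 12.38 and 12.46. The nearest arrays of the groups were 1.18 log2 units apart for Fa2h and 1.00 for Cryab. The transferrin gene Trf and the tight-junction gene Cldn11 were the other 2, and after quantile normalization the adjusted p of Trf was 0.0584 by limma. Mbp, the myelin basic protein gene, read 17.87, 16.60 and 17.64 against 18.45, 18.69 and 18.52, did not overlap between groups, and did not pass (limma adjusted p 0.287). The 9 markers of oligodendrocyte precursors had 0 calls and a like-level median of -0.32.

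Several astrocyte genes fell too. Of 20 measured markers 5 were called, all of them lower, against 0.8% of all genes. The median change was -0.69, which became -0.44 at like level and -0.46 after quantile normalization. Sox9, a transcription factor that astrocytes keep in the adult brain, read 9.31, 8.91 and 9.18 against 10.80, 10.64 and 10.56 and fell 2.89-fold (limma adjusted p 0.0117). Gpr37l1, a receptor of astrocyte membranes, read 11.62, 10.88 and 11.40 against 12.54, 12.58 and 12.63. The nearest arrays of the groups were 1.25 and 0.92 log2 units apart. Gfap, the intermediate filament that rises in reactive astrocytes, read 10.91, 10.52 and 10.46 against 11.94, 12.05 and 12.11. Hepacam and Aqp4, the adhesion protein and the water channel of the endfeet, were called as well. After quantile normalization the calls of Gfap, Hepacam and Aqp4 ended (limma adjusted p 0.109, 0.0661 and 0.121), and those of Sox9 and Gpr37l1 did not. That normalization took in the VE arrays. With the 2 groups alone normalized and fitted, Aqp4 stayed called, with a change of -0.67. Of 90 potassium channel genes 3 were called, all lower, against 0.8% of all genes. Kcnj10, which clears potassium into astrocytes, read 10.43, 9.84 and 9.86 against 11.42, 11.41 and 11.59 and fell by 1.43 (SE 0.218, limma adjusted p 0.0207).

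Some genes of microglia, the resident macrophages of the brain, fell. Of 22 measured markers 2 were called, both lower, against 0.8% of all genes, 3 had a higher mean in ob/ob, and 20 lay below the median of their level bin. After quantile normalization 5 of the 22 were called lower, against 1.19% of all genes. The median change was -0.56, and the like-level and quantile-normalized values were both -0.53. Olfml3, a secreted protein of resting microglia, read 5.60, 5.59 and 5.76 against 7.06, 6.89 and 6.78. C1qb, a chain of the first complement component, read 6.54, 6.72 and 6.45 against 7.52, 7.65 and 7.36. C1qc and Csf1r, the receptor that microglia need to survive, separated the groups without passing (limma adjusted p 0.0559 and 0.0553), and both passed after quantile normalization (0.019 and 0.0419). In the lysosome list, 2 of 19 genes were called lower (0.8% of all genes), and 17 of 19 had all ob/ob arrays below all wild-type arrays (18.5% of all genes). Ctsa, a protective carboxypeptidase, read 7.15, 6.55 and 7.11 against 8.27, 8.12 and 8.10, and Grn, the gene of progranulin, read 9.93, 9.45 and 9.92 against 10.71, 10.64 and 10.72. The call of Grn ended after quantile normalization (limma adjusted p 0.0844). The 23 genes of inflammatory cytokines and NF-kB had 0 calls by limma and a like-level median of -0.09.

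The medians of neuronal lists came closer to 0 once level was taken into account. The 15 pan-neuronal markers had 0 calls and a median of -0.62, which became -0.30 at like level and -0.31 after quantile normalization. All 15 still lay below the median of their level bin, and 13 did after quantile normalization. For 12 of them all ob/ob arrays lay below all wild-type arrays, as for 18.5% of all genes. Nefm, a neurofilament subunit, read 10.41, 9.93 and 10.05 against 11.22, 11.11 and 11.15 and did not pass (limma adjusted p 0.0592), but it passed after quantile normalization (0.0316). The 28 genes of synaptic vesicles and release likewise had 0 calls, with a median of -0.39 but a like-level median of -0.07. For 16 of these 28 all ob/ob arrays lay below all wild-type arrays, against 18.5% of all genes, in a bright list with a median level of 13.01. The 10 markers of excitatory neurons had a like-level median of -0.41 and the 14 of inhibitory neurons -0.31, with 0 calls in either. The 18 markers of striatum stood at -0.02.

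Among the brain regions, thalamus markers included 2 called genes of 17, and both fell, against 0.8% of all genes. Tcf7l2, a transcription factor of thalamic neurons and of oligodendrocytes forming myelin, read 11.39, 10.19 and 10.85 against 13.60, 12.73 and 13.10, a fall of 5.04-fold (limma adjusted p 0.0117). The nearest arrays of its groups were 1.34 log2 units apart. Rgs16, which shortens G protein signals, read 7.92, 7.37 and 7.41 against 8.97, 8.61 and 8.28. The list's median was -0.57, and -0.40 both at like level and after quantile normalization. How much thalamus each sample held was not tested.

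**Figure D3:**
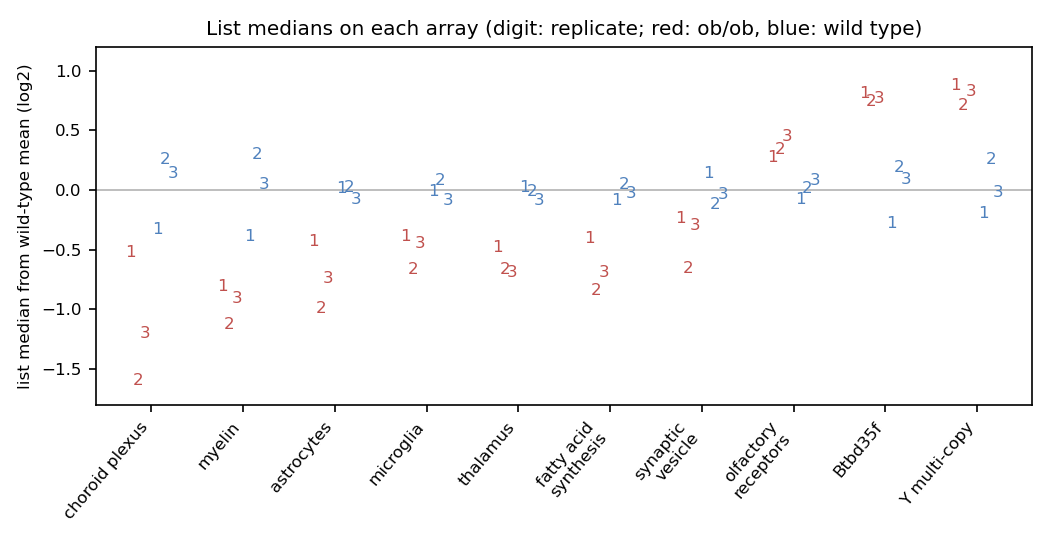
Median of each list on each array (digits are the replicate numbers, red for ob/ob and blue for wild type), measured in log2 units from each gene's wild-type mean. The ob/ob arrays lie below 0 for the first 7 lists and above 0 for the last 3, and wild-type array 1 lies nearest to the ob/ob arrays for choroid plexus and myelin.

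No gene of the leptin pathway was called in this tissue, where 0.333% of all genes were called higher and 0.8% lower. At these shares a list of 17 genes may well hold 0 calls, so their absence says little about the pathway. Lep, whose ob transcript is still made, was dim on all arrays at 4.93, 4.83 and 5.17 in ob/ob against 4.81, 4.84 and 5.08 in wild type. Lepr, its receptor, read 6.68, 6.68 and 6.93 against 6.77, 6.87 and 6.86. Neither passed (limma adjusted p 0.876 and 0.858), and the 17 genes of leptin signalling had 0 calls and a like-level median of -0.19. Socs3, a feedback inhibitor that leptin induces, read 4.43, 4.49 and 4.55 against 4.54, 4.51 and 4.14. Of the neuropeptide genes that leptin acts on, Npy read 10.85, 10.38 and 10.61 against 11.11, 11.08 and 11.07, and Pomc 5.84, 5.78 and 6.32 against 5.39, 5.82 and 5.05. Neither of these passed (limma adjusted p 0.431 and 0.388), and Agrp was not analysed here. Mc3r, a melanocortin receptor, read 6.90, 7.28 and 7.47 against 6.36, 6.22 and 6.01, with a limma adjusted p of 0.0544 that became 0.0457 after quantile normalization.

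Neuropeptides of the lateral hypothalamus separated the wild-type arrays from each other. Pmch, the precursor of melanin-concentrating hormone, which drives feeding, read 7.18, 6.94 and 6.52 in ob/ob and 7.18, 11.79 and 10.66 in wild type. Hcrt, the orexin precursor of wakefulness neurons, read 5.76, 5.81 and 5.68 against 5.92, 8.35 and 7.17. For both, wild-type array 1 was far closer to the ob/ob arrays than to the other wild-type arrays, as for the choroid plexus genes Kcnj13 and Car12 but not for Lbp or Slc13a4. Neither passed (limma adjusted p 0.0752 and 0.127). The change of Pmch was -3.00 and became -4.34 without wild-type array 1. It passed by limma in that fit, without VE array 2, with the 2 groups alone, with these 2 groups alone quantile normalized, and under cyclic loess. The 23 hypothalamus markers had a like-level median of 0.00. How much of the hypothalamus each sample held was not tested. Fkbp5, a cochaperone induced by glucocorticoids, read 13.59, 13.40 and 13.42 against 13.04, 12.98 and 12.71. Its groups did not overlap, its change of 0.56 did not pass (limma adjusted p 0.247), and after quantile normalization it was 0.85 with an adjusted p of 0.0199. The list of 21 glucocorticoid receptor targets that holds Fkbp5 had 0 calls and a like-level median of -0.08. Of these 21, 9 had a higher and 12 a lower mean in ob/ob.

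A mutation moved onto another strain by backcrossing can carry neighbouring DNA with it, so the genes beside Lep were examined. The 50 measured genes on each side of Lep on chromosome 6, in RefSeq order, had 0 calls of 100 by limma, where 0.333% of all genes were called higher and 0.8% lower. At an unadjusted p under 0.05 were 16 of the 100, against 19.1% of all genes. After quantile normalization 1 of the 100 was called higher, against 0.943% of all genes. Their median change was -0.01 and their like-level median -0.05. Ube2h, a ubiquitin-conjugating enzyme, had the smallest adjusted p of these, and read 9.71, 9.47 and 9.86 against 11.04, 10.46 and 10.55 (limma adjusted p 0.0929). It was named after its values were seen. Over the 19 autosomes the median change ran from -0.08 to 0.10, the like-level median from -0.05 to 0.02, and the share of genes called from 0.455% to 1.63%.

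Growth factor and insulin genes included 3 called of 29, all lower, against 0.8% of all genes. Igf2, a growth factor that choroid plexus and meninges secrete, read 11.48, 10.32 and 10.86 against 12.85, 12.59 and 12.97 and fell 3.78-fold (limma adjusted p 0.0193). Igfbp5, which binds insulin-like growth factors, read 10.43, 10.02 and 10.08 against 11.77, 11.14 and 11.73. Pik3ip1, an inhibitor of phosphoinositide 3-kinase, read 9.63 and 9.07 on ob/ob arrays 2 and 3 against 11.17, 10.87 and 11.23, and its nearest arrays, ob/ob array 1 and wild-type array 2, were 0.87 log2 units apart. No gene of the 3 overlapped between groups, and each stayed called after quantile normalization. The list's like-level median was nevertheless -0.21. Igf2 was also the 1 called member among 22 markers of meninges and fibroblasts, whose like-level median was -0.33.

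Enzymes that make and lengthen fatty acids included 2 called genes. Of 16 measured genes these 2 were lower, against 0.8% of all genes, 1 had a higher mean in ob/ob, and the list's median of -0.81 became -0.49 at like level and -0.52 after quantile normalization. Scd1, which puts the double bond into stearic acid, read 11.64, 10.86 and 10.84 against 12.47, 12.42 and 12.37. Elovl6, which lengthens palmitic acid, read 9.91, 10.04 and 9.78 against 10.80, 10.96 and 11.14. Both separated the groups and passed (limma adjusted p 0.0326 and 0.0415). Elovl5 and Tecr, of the same elongation cycle, separated the groups without passing (limma adjusted p 0.0514 for both). After quantile normalization they were further from passing (limma adjusted p 0.144 and 0.19). The 18 genes of cholesterol synthesis had 0 calls and a like-level median of -0.15.

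Chaperones of the endoplasmic reticulum, which fold secreted and membrane proteins, included 2 called genes of 22, both lower, against 0.8% of all genes. Calr, the gene of the calcium-binding chaperone calreticulin, read 14.73, 14.20 and 14.44 against 15.52, 16.70 and 16.37 and fell 3.34-fold (limma adjusted p 0.0455). Pdia6, a disulfide isomerase, read 11.64, 11.28 and 10.74 against 12.20, 12.73 and 12.61 and fell 2.45-fold (limma adjusted p 0.0463). Hspa5, the gene of the chief chaperone BiP, read 13.89, 13.75 and 13.90 against 13.96, 15.07 and 14.46 and did not pass (limma adjusted p 0.249). The list's median was -0.50, and -0.26 at like level. These genes are known to share a promoter element to which the stress factor ATF6 binds. The element, CCAAT, then 9 bases of any kind, then CCACG, was searched on both strands in the 300 bases from 250 before to 50 after each RefSeq start site (GRCm38.p6). It was present in 37 of 27025 genes (0.137%) and in 8 of the 20 chaperone genes that have a promoter in that table. The promoters of the called pair and of Hspa5 are shown in the direction of transcription, with the element in capitals. They lie at chr8:84846882-84847181 on the minus strand, chr12:17266339-17266638 on the plus strand and chr2:34771840-34772139 on the plus strand.
Calr: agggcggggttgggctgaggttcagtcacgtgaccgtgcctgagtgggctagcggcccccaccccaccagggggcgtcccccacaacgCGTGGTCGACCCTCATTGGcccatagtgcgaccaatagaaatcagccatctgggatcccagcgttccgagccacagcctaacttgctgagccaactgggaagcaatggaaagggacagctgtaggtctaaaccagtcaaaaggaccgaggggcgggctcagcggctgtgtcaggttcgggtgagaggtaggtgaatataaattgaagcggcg
Pdia6: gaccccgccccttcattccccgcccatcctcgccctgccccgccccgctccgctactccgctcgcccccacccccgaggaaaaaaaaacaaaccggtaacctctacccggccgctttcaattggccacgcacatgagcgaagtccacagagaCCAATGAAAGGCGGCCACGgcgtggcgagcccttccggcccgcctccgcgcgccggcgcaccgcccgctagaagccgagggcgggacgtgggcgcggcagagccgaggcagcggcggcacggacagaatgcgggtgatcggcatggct
Hspa5: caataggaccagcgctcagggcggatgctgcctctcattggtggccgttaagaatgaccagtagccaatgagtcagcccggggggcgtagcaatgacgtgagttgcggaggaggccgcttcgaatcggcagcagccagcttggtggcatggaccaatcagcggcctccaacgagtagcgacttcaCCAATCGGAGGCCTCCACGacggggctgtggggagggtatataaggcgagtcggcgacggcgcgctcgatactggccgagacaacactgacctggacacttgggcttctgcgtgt
In Calr the element lies on the strand opposite to transcription, and in Pdia6 and Hspa5 on the same strand. The 8 genes with the element had a like-level median of -0.35, and the 12 without it -0.20. These values are a description, and the difference was not tested. The 13 regulators of the unfolded protein response had 0 calls and a like-level median of 0.05.

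Housekeeping families had few calls, where 0.8% of all genes were called lower, and most of these families had medians a little below 0. The 63 cytosolic ribosomal proteins had a median of -0.54, of which -0.22 was left at like level. Rps13, the 1 called member, read 9.88, 9.77 and 9.52 against 10.72, 10.60 and 10.87. The 76 mitochondrial ribosomal proteins stood at -0.29 at like level. They had 1 call before and 5 after quantile normalization, all lower, against 0.8% and 1.19% of all genes. Their called member was Mrpl52, with 5.30, 5.52 and 5.38 against 6.25, 6.47 and 6.29. In the respiratory chain the like-level medians were -0.19 for 36 genes of complex I, -0.18 for 18 of complex IV and -0.34 for 17 of complex V. Ndufs7, an iron-sulfur subunit of complex I, read 9.49, 9.04 and 9.40 against 11.00, 10.46 and 10.66 and was the called member of these 3 families. The 74 histone genes had a like-level median of -0.29 with 0 calls. By contrast 25 subunits of the vacuolar ATPase stood at 0.02 and 50 of the proteasome at 0.05, each with 0 calls. Of the 25 antioxidant enzymes 22 lay below their level bin. Their called member was catalase, Cat, which read 9.79, 9.88 and 10.04 against 11.23, 11.38 and 11.05.

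Receptors and channels of neurons were mixed. Among 17 ionotropic glutamate receptor genes the median change was -0.06, and 0.17 at like level. Grid1, the delta receptor that binds cerebellins at synapses, read 7.36, 7.26 and 7.65 against 8.79, 8.57 and 8.26 and fell (limma adjusted p 0.0366). Gria3, an AMPA receptor subunit, read 14.76, 14.25 and 14.78 against 14.40, 14.10 and 14.14. It was named after its values were seen, since its change of 0.38 (limma adjusted p 0.52) became 0.71 after quantile normalization with an adjusted p of 0.0419. Of 25 calcium channel genes 2 were called, both lower, against 0.8% of all genes. They were the AMPA receptor chaperones Cacng2 and Cacng4. Cacng2, or stargazin, read 11.20, 10.78 and 10.71 against 12.28, 11.74 and 12.08. Cacng4 was not called after quantile normalization (limma adjusted p 0.094), but it was with the 2 groups alone so normalized (change -0.67). The other 2 called potassium channels were Kcnj9, a partner in G protein-gated channels, with 7.94, 7.56 and 7.70 against 9.14, 8.52 and 9.10, and Kcns2, a silent subunit, with 6.70, 6.62 and 6.68 against 7.76, 7.60 and 7.59. The 11 non-clustered protocadherins, adhesion proteins of developing circuits, had 0 calls but a like-level median of -0.38. Pcdh10 read 9.55, 9.55 and 9.46 against 11.17, 10.22 and 10.52 (limma adjusted p 0.0628, and 0.0433 after quantile normalization).

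Other genes among the 15 largest called falls were in none of these lists. Tmem176b, a membrane protein of immune cells, read 9.27, 9.47 and 8.98 against 10.82, 10.82 and 10.78, a fall of 2.96-fold (limma adjusted p 0.0117). Hcfc1r1, a regulator of the transcription cofactor HCF-1, read 8.48, 8.39 and 8.15 against 10.02, 9.65 and 10.12. Agap3, a GTPase regulator of glutamate receptor traffic, read 12.21, 11.44 and 11.54 against 13.64, 13.14 and 13.05. The nearest arrays of the groups were 1.31, 1.17 and 0.84 log2 units apart.

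Many of the genes called higher belonged to chemosensory, predicted and sex chromosome gene families. Of the 65, 20 were olfactory receptors, 10 were predicted genes with Gm symbols, and 6 belonged to the Btbd35f family. Of the 1091 olfactory receptors, which sense odours in the nose, 1.83% were called higher, against 0.333% of all genes. They had a median of 0.36, a like-level median of 0.19 and 0.20 after quantile normalization. Olfr638 read 9.50, 9.41 and 9.66 against 8.10, 8.09 and 8.17, with 1.24 log2 units between the nearest arrays. Like-level medians were 0.15 for 201 vomeronasal type 1 receptors, 0.30 for 50 keratin-associated proteins of hair, 0.35 for 61 defensins, 0.42 for 21 lipocalins and major urinary proteins and 0.21 for 446 predicted genes. Their members called higher numbered 1, 2, 0, 0 and 10, against 0.333% of all genes, and 1 predicted gene was called lower. Defb46, a beta-defensin, read 9.78, 9.83 and 10.34 against 8.90, 9.15 and 9.12 and passed after quantile normalization (limma adjusted p 0.0536, then 0.0188). Scgb2b3, a secretoglobin, read 6.17, 5.97 and 5.83 against 4.73, 4.58 and 3.97 and rose 2.96-fold (limma adjusted p 0.0193). Zfp600, a zinc finger gene, read 8.31, 8.41 and 8.12 against 6.79, 7.24 and 7.01.

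**Figure D4:**
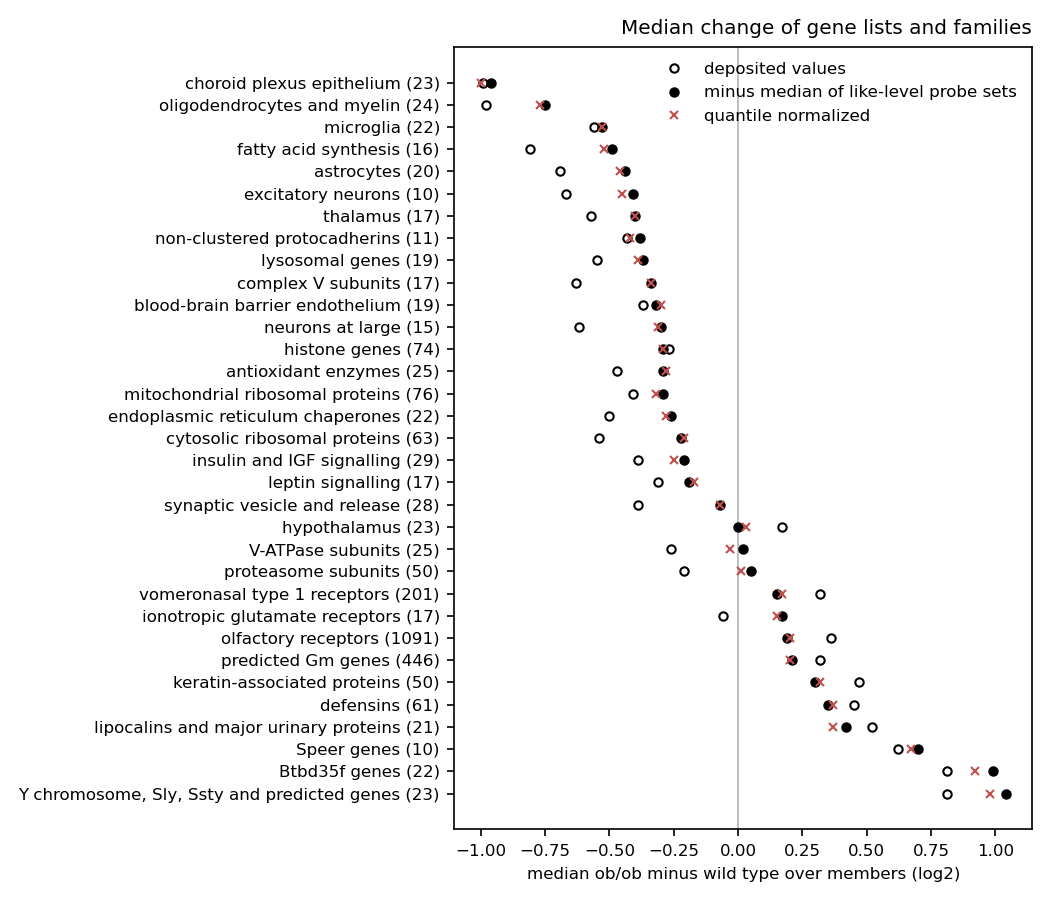
Median ob/ob minus wild-type difference (log2) over the members of 33 lists and families, with the number of genes in brackets: deposited values (open circles), after the median of like-level probe sets was taken off (filled circles), and after quantile normalization (crosses). Choroid plexus and myelin lie lowest at -0.96 and -0.75 at like level, and the Btbd35f and Y multi-copy genes highest at 0.99 and 1.04.

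Multi-copy genes of the sex chromosomes gave the highest medians at like level of the families described here. They are active in developing sperm and exist in many near-identical copies, so that a probe set can read several copies at once. These families were picked out after their values were seen. The 22 Btbd35f genes of the X chromosome had 6 calls, all higher, against 0.333% of all genes. After quantile normalization they had 12, all higher, against 0.943% of all genes. Their median change was 0.81, with 0.99 at like level and 0.92 after quantile normalization. Btbd35f19 read 10.84, 10.90 and 11.26 against 9.56, 10.10 and 9.78, and Btbd35f18 10.57, 10.51 and 10.56 against 9.12, 9.63 and 9.56. Neither overlapped between the groups, and they rose 2.28-fold and 2.16-fold (limma adjusted p 0.0415 and 0.0366). The family split by level. Btbd35f28, Btbd35f29 and Btbd35f30, at mean signals of 5.82, 6.23 and 6.23, were the 3 members with a lower mean in ob/ob, and the last 2 carried identical values on every array. The 10 Speer genes, which are autosomal testis genes, had a like-level median of 0.70 with 1 call, Speer4a.

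The Y chromosome was read by genes of many copies and by other genes. Of its 32 measured genes, 23 are Sly, Ssty1, Ssty2 and predicted genes, which sit in the repeated part of the long arm, and 9 are other named genes. All 23 of the first kind had a higher mean in ob/ob, and for 19 of them the groups did not overlap, against 14.1% of all genes with all ob/ob arrays above. Their median was 0.81, and 1.04 at like level. They had 1 call before and 13 after quantile normalization, all higher, against 0.333% and 0.943% of all genes. Gm20738 read 11.05, 10.79 and 10.73 against 9.07, 9.92 and 9.28 and rose by 1.43 (SE 0.280, limma adjusted p 0.0379). Sly, which acts in sperm cells on sex chromosome genes, read 11.03, 10.24 and 10.82 against 9.48, 9.97 and 9.46 (limma adjusted p 0.0692, and 0.0115 after quantile normalization). The other 9 had a median of -0.07, a like-level median of -0.11 and 0 calls. Their median level was 4.98, against 9.64 for the 23, so the 2 sets were not of like level. Uty, a brighter gene of the 9, read 9.53, 9.30 and 9.10 against 9.50, 9.13 and 8.60. Its change was 0.23, or 0.46 at like level (limma adjusted p 0.694). Kdm5d and Eif2s3y, single-copy genes active in most male tissues, read 7.79, 7.77 and 7.65 against 7.91, 7.87 and 7.64, and 11.21, 11.01 and 11.19 against 11.51, 11.33 and 11.22. On wild-type array 1 the median of the multi-copy Y genes was -0.20 from the wild-type mean, against 0.26 and -0.02 on the other wild-type arrays and 0.71 to 0.88 on the ob/ob arrays.

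**Figure D5:**
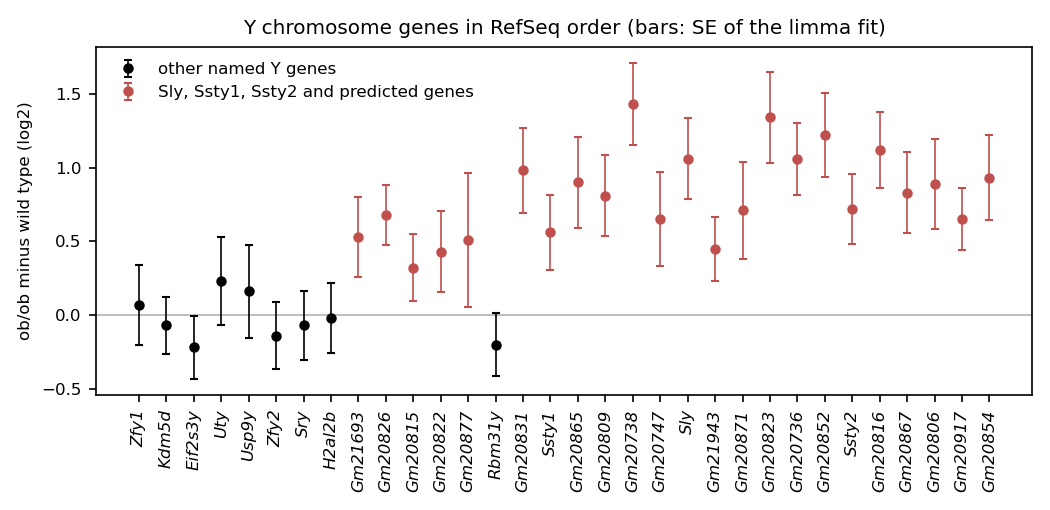
Ob/ob minus wild-type difference (log2, with the SE of the limma fit over 9 arrays) of 32 Y chromosome genes in RefSeq order. The 9 other named genes (black), with a median level of 4.98, lie near 0. The 23 Sly, Ssty and predicted genes (red), with a median level of 9.64, all lie above 0, up to 1.43.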

How the data were processed

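Brain RNA of ob/ob and wild-type mice given vehicle was read on 3 Clariom S mouse arrays a group, and 3 VE arrays entered the fit alone. As deposited, the values are log2 signals, which the authors obtained by RMA with a signal space transformation in Transcriptome Analysis Console 4, per the submitters' processing notes and design text. They round to 2 decimals and reach an upper limit of 19.93 on 8 probe sets, where differences between arrays are lost. Per the labels' protocols, 100 ng of RNA was used and hybridized for 16 h at 45 C. Arrays have no sequencing depth, and 3 arrays per group limit the precision.

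Group means were fitted to the 9 arrays with limma 3.58.1 (R 4.3.3, empirical Bayes with 6 residual and 7.03 prior degrees of freedom), two-sided, with Benjamini-Hochberg adjustment over 22206 probe sets. The probe set with the highest mean over the 6 arrays stood for a gene, and symbols came from the platform annotation, which can be old. The 2634 probe sets with no symbol were named nowhere. RefSeq on GRCm38.p6 gave chromosomes and promoters, and all 19505 genes matched it by gene number. The array design's own build is not given in the sources used here.

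Lists were described by counts and medians with no test. Named were the 15 largest called rises and falls as space allowed, and list members that had the smallest p or the highest signal. Also named were called or smallest-p members of families, some of a preset list of leptin and marker genes, and tissue checks. Agrp, Cartpt and Bdnf were on the preset list and are not described. Members and lists were chosen with earlier results of these data known. Alternatives were quantile normalization, quantile normalization of the 2 groups alone, centring, cyclic loess, the 2 groups alone, the replicate number as a block, trend and robust moderation, brighter probe sets, other thresholds and leaving out each array. Removing the probe sets at the upper limit was added after the data were seen. Same-numbered ob/ob and wild-type arrays had correlated deviations of 0.107, -0.016 and 0.0871, so the numbers were not taken to pair them. The fit was tested on simulated arrays in which 200 of the 22206 probe sets differed between ob/ob and wild type. It found 0% of differences of 0.5 log2 units (0 false calls), 18% at 1 (3 false calls) and 94.5% at 2 (10 false calls). The simulated noise was independent and normal for each probe set. It held no shift of the groups with level and no deviation shared across an array. The numbers of false calls therefore do not carry over to the deposited values.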

Additional observations from a re-analysis of the deposited data

How the results depend on the processing

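The count of called probe sets moved with most settings. The direction of the 52 called genes named in the text did not change in any. Leaving out an array could not reverse it, since the groups did not overlap for these genes. Their calls did change. Over these genes and all settings, the call ended in 346 cases and stayed in 582. Against 281 calls (119 higher, 162 lower), quantile normalization gave 631 (381 and 250), quantile normalization of the 2 groups alone 1574 (870 and 704), centring 614 (448 of them lower), cyclic loess 808 (485 and 323) and the 2 groups alone 2626 (1205 and 1421). An adjusted p under 0.1 gave 1204 (564 and 640), and the authors' rule of an unadjusted p under 0.05 and a fold over 1.1 gave 4457 (2193 and 2264). Trend and robust moderation called 179 higher, and probe sets above the median level 245 lower. With single arrays left out the counts ran from 0 to 2975, with 0 to 1381 higher and 0 to 1594 lower. The cause was not tested. Without the probe sets at the upper limit, a choice made after the data were seen, the count was 283. With the replicate number as a block 251 were called, and not every ob/ob array correlated best with the wild-type array of its own number.

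Some values near 0 changed sign without a call. Lep went from 0.07 to -0.11 under quantile normalization, -0.12 with the 2 groups alone so normalized, -0.01 under centring, -0.10 under cyclic loess and, with single arrays left out, ranged from -0.03 to 0.15. Socs3 went to -0.06, -0.06 and -0.07 under the 2 quantile settings and cyclic loess, and ranged from -0.03 to 0.17 with single arrays left out. Eif2s3y went to 0.03, 0.04 and 0.05 under the same 3 settings, and Plin1 to -0.01 under cyclic loess. The median of the proteasome genes went from -0.21 to 0.01, 0.01 and 0.03 under these 3, and that of the vacuolar ATPase genes to 0.00 under cyclic loess. Centring moved the median of all probe sets from 0.017 to -0.057, and the split of calls from 119 higher of 281 to 166 of 614.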

Other observations

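Some lists of neuronal and metabolic genes had a single called gene that was lower in ob/ob brain, where 0.8% of all genes were called lower. With many lists looked at, a single call says little about a list. Aplp1, a relative of the amyloid precursor protein, read 13.86, 13.98 and 13.86 in ob/ob against 15.54, 14.93 and 14.92 in wild type (limma adjusted p 0.0471). It was the called member of 17 amyloid and tau genes, whose like-level median was -0.26. Bhlhe40, a repressor that follows the daily clock, read 12.69, 12.01 and 12.18 against 13.66, 13.21 and 13.43 (limma adjusted p 0.0375). The 21 clock genes had a like-level median of -0.06. Mdh2, the mitochondrial malate dehydrogenase, read 11.46, 11.50 and 11.38 against 12.89, 12.31 and 12.49 (limma adjusted p 0.0366), in a tricarboxylic acid cycle list of 24 with a like-level median of -0.14. After quantile normalization the 3 did not pass (limma adjusted p 0.0735, 0.123 and 0.0989). With the 2 groups alone so normalized, Aplp1 and Bhlhe40 stayed called, with changes of -0.87 and -0.84.

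The 19 markers of blood-brain barrier endothelium had 0 calls by limma and a like-level median of -0.32. Bsg, a surface glycoprotein of these vessels, read 16.54, 15.67 and 15.94 against 17.35, 17.55 and 17.30, and passed after quantile normalization (limma adjusted p 0.0946, then 0.0422). The 20 genes of glycolysis had 0 calls and a like-level median of -0.09.

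Other families had a single called gene that was higher in ob/ob. They were 1 of 99 cytochromes P450, 1 of 35 Hox genes, 1 of 32 UDP-glucuronosyltransferases and sulfotransferases, 1 of 20 MAS-related receptors and 1 of 37 tyrosine phosphatases. Of all genes 0.333% were called higher, and with many families looked at a single call says little about a family.

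The 2634 probe sets with no gene symbol gave 53 calls higher (2.01%) and 6 lower (0.228%) in ob/ob. Of all probe sets, 1.27% were called in either direction. Their median change was 0.18, with 0.12 at like level. What these probe sets measure is not analysed here.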
